A study of Mus musculus with 6 samples.

Results

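Ifitm1, Ifitm2 and Ifitm3 code for small interferon-induced transmembrane proteins, and these 3 of the 15601 genes in the deposited count table were described across 11 deposited cell clusters and 6 libraries. They were chosen by name, on their levels and joint detection in these same cells, with the interferon-stimulated genes Ifit3 and Isg15 as controls. All 3 were detected, with 246295 UMIs (unique molecular identifiers, each counted as 1 captured RNA molecule) of Ifitm1, 80161 of Ifitm2 and 25658 of Ifitm3 over 26698 cells. Ifit3 had 6153 UMIs and Isg15 13550.

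The cells were live CD3+ CD8+ CD4- T cells, sorted from subcutaneous MB49 tumours of wild-type C57BL/6 mice and profiled with a droplet kit that counts the 3′ ends of transcripts. MB49 is a mouse urothelial cancer line. The 3 female and 3 male replicates carried the same tumour, grown from 500000 injected cells and taken on day 10. The mice were 6 weeks old at injection by the protocol, and 6 to 8 weeks by their age label. There was no tumour-free group, and the labels do not say whether a library came from 1 mouse or a pool, so p-values measure the spread between libraries.

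The libraries held 2121 to 7156 cells and 25562319 to 66105318 UMIs, with medians of 6397.5 to 10114.5 UMIs per cell. Libraries 2, 5 and 6 are labelled female and libraries 1, 3 and 4 male. Xist, the X-inactivation RNA, had 20811 to 44536 UMIs in the female libraries and 0 to 5 in the male ones, and the Y-linked Ddx3y had 0 in the female and 3253 to 5788 in the male libraries. Cd4 had 0 to 17 UMIs per library, while Cd8a had 16951 to 47453. No library went against its label, and 84 cell barcodes (169 cells) occurred under more than 1 library number. Clusters were named from marker genes among their 10 leading genes by fold. Cluster 2 is innate-like (Klra1, Klra7, Klrb1c, Fcer1g, Tyrobp) and had 1897 to 2576 CPM (UMIs per 1000000 UMIs of the summed cells) of the CD8 T cell markers together, against 3710 to 4992 CPM over the other cells. Its lowest library and its highest library were each the lowest among the 11 clusters, although cluster 7 (from 2357 CPM) overlapped it. It was therefore kept out of the sums over all CD8 T cells. Cluster 3 is proliferating-like, cluster 4 activated cytokine-producing-like, cluster 7 naive or central memory-like and cluster 9 interferon-stimulated-like (Ifit1, Ifit3, Rsad2, Usp18, Mx1). The others are called by number. Cluster 8 was led by the granzyme genes Gzmc to Gzmg. These 5 are on the list of terminally exhausted markers used below, and no other gene of that list was among its 10 leading genes. It could be named terminally exhausted-like by them, but is called by number here. Cluster 5 was led by DNA replication genes such as Mcm3 and Mcm2, cluster 1 by Gzmm, Cxcr3 and S1pr1, and cluster 0 by Cnih2 and Serpinb1a. Cluster 6 was led by Gzmg and Spp1, with Gzmd and mitochondrial genes after them. Cluster 10 was led by Gm26870, Gm42418 and Lars2, with mitochondrial genes further down its 10 leading genes. Both were shallow, with medians of 1742 UMIs per cell in cluster 6 and 1461 in cluster 10.

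IFITM proteins sit in the plasma membrane and in endosomes and lysosomes, where they hinder the fusion of enveloped viruses with the cell's membranes. Their genes lie side by side and are induced by type I and type II interferon in many cells. Some cells also express them without infection, and memory CD8 T cells that stay in the lung are known to keep Ifitm3. Ifit3 (an antiviral protein with tetratricopeptide repeats) and Isg15 (a ubiquitin-like modifier) are standard targets of type I interferon, which acts on promoters through the interferon-stimulated response element.

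In mm10 the 3 members lay within a single stretch of chromosome 7 (GENCODE M21 annotation). Ifitm2 (ENSMUSG00000060591.9) lay at chr7:140954837-140955987 on the minus strand. Ifitm1 (ENSMUSG00000025491.14) lay at chr7:140967221-140969825 on the plus strand, and Ifitm3 (ENSMUSG00000025492.6) at chr7:141009586-141010770 on the minus strand. All 3 are protein-coding. Their start regions are shown because the members moved together across cells while the controls did not move with them. The sequences are from RefSeq (GRCm38.p6, the assembly of mm10), 5′ to 3′ on each gene's own strand, taken from 250 bases before to 50 after the RefSeq start and trimmed before the first exon. Capitals mark matches to the core of the interferon-stimulated response element, which is GAAA, any 2 bases and GAAA again, or TTTC, any 2 bases and TTTC on the other strand. The Ifitm1 stretch is chr7:140967826-140968027 (plus strand), between exons of a longer annotated transcript. The Ifitm2 stretch is chr7:140955988-140956211 and the Ifitm3 stretch is chr7:141010771-141010994 (both minus strand).
Ifitm1: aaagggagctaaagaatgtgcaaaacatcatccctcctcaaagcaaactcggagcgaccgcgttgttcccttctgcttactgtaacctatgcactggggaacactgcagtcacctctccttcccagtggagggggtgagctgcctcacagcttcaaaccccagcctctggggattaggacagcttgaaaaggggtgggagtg
Ifitm2: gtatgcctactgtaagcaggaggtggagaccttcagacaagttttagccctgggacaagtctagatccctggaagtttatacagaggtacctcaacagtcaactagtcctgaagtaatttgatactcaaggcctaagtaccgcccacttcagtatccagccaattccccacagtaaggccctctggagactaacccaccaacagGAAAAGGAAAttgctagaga
Ifitm3: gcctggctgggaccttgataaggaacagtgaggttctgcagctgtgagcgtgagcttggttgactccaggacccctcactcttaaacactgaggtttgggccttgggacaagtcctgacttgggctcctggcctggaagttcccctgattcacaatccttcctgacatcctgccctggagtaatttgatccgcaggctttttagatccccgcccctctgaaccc

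Of all 32544 RefSeq promoter windows of this length, 3.45% held a match to the response element core on either strand. Ifitm2 held 1 match, 46 bases before its RefSeq start. Ifitm3 held 2 matches, at positions 3 and 20 from the start, inside its first GENCODE exon (the 30 bases at chr7:141010715-141010744, minus strand, shown here). The Ifitm1 window held none of these letters. For comparison, the Ifit3 window held 2 matches (60 bases at chr19:34583365-34583424, plus strand) and the Isg15 window held 3 that overlap one another (38 bases at chr4:156200867-156200904, minus strand). The core of the gamma-activated sequence, TTCNNNGAA, which reads the same on both strands, occurred in 8.33% of the windows. Among the 5 genes it occurred only in the Ifitm3 window, overlapping the stretch between its 2 matches.
Ifitm3 exon: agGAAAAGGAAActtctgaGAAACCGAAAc
Ifit3: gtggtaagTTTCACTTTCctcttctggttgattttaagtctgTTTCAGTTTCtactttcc
Isg15: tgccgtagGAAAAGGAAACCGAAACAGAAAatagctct

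The 3 transcripts are related in sequence, which bears on how reads are told apart. The longest stretch identical between 2 transcripts was 40 bases for Ifitm1 and Ifitm2, 64 for Ifitm1 and Ifitm3 and 69 for Ifitm2 and Ifitm3. Within the last 400 bases, which 3′ libraries mostly read, it was 29, 39 and 27 bases. How reads that match several genes were handled is not given in the sources used here.

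Ifitm1 was far from evenly spread over the deposited clusters. It was highest in the granzyme-led cluster 8, where the female libraries 2, 5 and 6 had 1918, 2143 and 3691 CPM and the male libraries 1, 3 and 4 had 3260, 2192 and 1501 CPM. Cluster 1 came next, with 2955, 2163 and 2120 CPM in the female and 1029, 1263 and 434 CPM in the male libraries. In cluster 8 the sexes overlapped, whereas in cluster 1 all female libraries lay above all male ones. Ordered by the mean of the 6 libraries, the clusters ran 8, 1, 5, 3, 6, 9, 4, 0, 10, 2 and 7. Several neighbours in that order were not separated, since cluster 8 was above cluster 1 in only 4 of 6 libraries, and clusters 3 and 6, 6 and 9, and 9 and 4 split 3 to 3. At the low end cluster 2 was above cluster 7 in 4 of 6 libraries for Ifitm1 and in 5 of 6 for Ifitm2 and Ifitm3. Cluster 8 was above cluster 0 in all 6 libraries, by 2.65 to 12.1 times.

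The naive or central memory-like cluster 7 held the least Ifitm1. Its libraries had 20.4, 249 and 17.1 CPM in females and 14.9, 21.8 and 22.3 CPM in males. Only female library 5 stood apart there, and 191 of its 214 Ifitm1 UMIs came from 5 cells, 1 of which held 114. Without those 5 cells its level was 28.3 CPM.

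Ifitm2 followed the same outline at a lower count. In cluster 8 it had 667, 616 and 1072 CPM in the female and 685, 639 and 498 CPM in the male libraries, and in cluster 7 it had 15.3, 113 and 7.49 CPM and 6.77, 13.8 and 10.8 CPM. The order of its clusters was 8, 6, 1, 5, 3, 4, 9, 0, 10, 2 and 7, with the shallow cluster 6 in the second place (910, 533 and 743 CPM in the female and 294, 355 and 351 CPM in the male libraries). Cluster 8 was above cluster 6 in 5 of 6 libraries.

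Ifitm3 was lowest in count and also peaked in cluster 8, at 235, 179 and 397 CPM in the female and 373, 275 and 151 CPM in the male libraries. Its order was 8, 9, 1, 5, 3, 6, 10, 4, 0, 2 and 7. The interferon-stimulated-like cluster 9 came second, with 194, 226 and 279 CPM in the female libraries and 21.6, 50.8 and 62.9 CPM in the male ones. It was above cluster 1 in 3 of 6 libraries.

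The controls had another distribution. Ifit3 stood at 294, 197 and 332 CPM in the female and 367, 539 and 432 CPM in the male libraries of cluster 9, a cluster it helps to define, and it was lowest in cluster 8, at 1.14 to 4.33 CPM. Isg15 had 340.3 to 580 CPM in cluster 9 and 25.3 to 65.0 CPM in cluster 8. Put as holdings, cluster 8 had 6.35% of the cells and 9.05% of all UMIs, but 24.8% of the Ifitm1, 21.9% of the Ifitm2 and 25.2% of the Ifitm3 UMIs. It had 1.22% of the Ifit3 UMIs and 7.65% of the Isg15 UMIs. Cluster 9 had 4.78% of the cells, 3.18% of all UMIs, 57.5% of the Ifit3 and 30.04% of the Isg15 UMIs. It had 2.28% of the Ifitm1 and 1.74% of the Ifitm2 UMIs, below its share of all UMIs, and 3.99% of the Ifitm3 UMIs, above it. The log2 ratio of Ifitm3 in cluster 9 to the other cells outside cluster 2 was 0.94, 1.18 and 0.87 in the female libraries. In the male libraries it was −1.90, −0.96 and 0.12. The clusters were made from these same cells and genes, so these distributions are a description and were not tested.

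**Figure D1:**
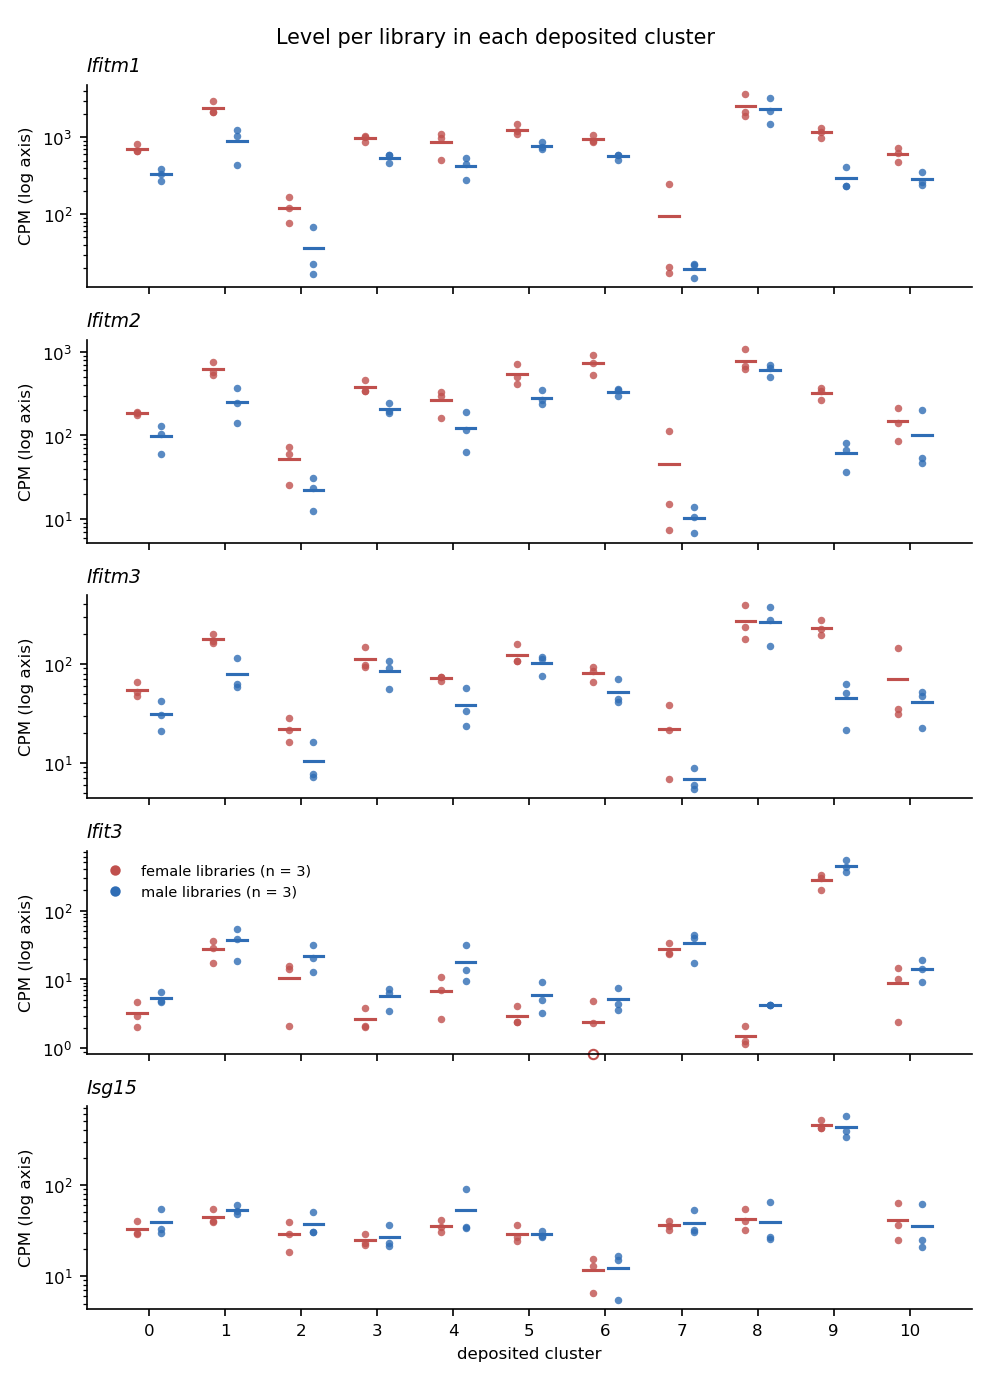
Level of Ifitm1, Ifitm2, Ifitm3, Ifit3 and Isg15 in CPM (log axis) against the deposited cluster. Each point is 1 library (3 female, 3 male), each line a group mean, and the open circle on the lower axis is a library at 0 (Ifit3 in cluster 6). By the mean of 6 libraries the 3 members are highest in cluster 8 and lowest in clusters 2 and 7, while Ifit3 and Isg15 are highest in cluster 9.

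The proportions of the members are given as ratios of UMIs, which 3′ counting does not scale with transcript length. Over all CD8 T cells outside cluster 2 there were 2.70 to 3.82 Ifitm1 UMIs per Ifitm2 UMI and 2.11 to 3.68 Ifitm2 UMIs per Ifitm3 UMI, with the sexes overlapping in both. The ratios varied between clusters. Cluster 6 had 1.17 to 1.74 Ifitm1 UMIs per Ifitm2 UMI and 4.21 to 10.6 Ifitm2 UMIs per Ifitm3 UMI. Cluster 9 leaned to Ifitm3, with 1.17 to 1.76 Ifitm2 UMIs per Ifitm3 UMI, and its Ifitm1 UMIs per Ifitm2 UMI ran from 2.69 to 6.34. The ratios were widely spread where counts were low, with Ifitm1 per Ifitm2 at 0.716 to 2.96 in cluster 2, 1.33 to 2.29 in cluster 7 and 1.76 to 5.65 in cluster 10.

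To compare cells of unequal depth, each cell was thinned to 1000 UMIs, which left out 242 shallower cells, and the share of cells with at least 1 UMI of a gene was counted. Ifitm1 was then seen in 26.5%, 33.9% and 28.1% of the cells outside cluster 2 in the female libraries and in 12.6%, 19.7% and 15.3% in the male ones. Without thinning the group means were 48.1% and 29.9%. The share was highest in cluster 8, at 44.1%, 54.4% and 71.1% in the female and 44.2%, 50.2% and 37.0% in the male libraries. It was lowest in cluster 7, at 1.04% to 6.50%. No cell type in the sort is known to lack the gene, so cluster 7 gives the closest value to a background: unthinned, at a median of 7465 UMIs per cell, 10.2% to 20.6% of its cells held an Ifitm1 UMI, against 55.1% to 86.8% in cluster 8 at a median of 13987. Exact 95% intervals for single libraries, which cover counting error only, ran from 36.8% to 51.5% for female library 2 in cluster 8 and from 1.30% to 9.02% for the same library in cluster 7.

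**Figure D2:**
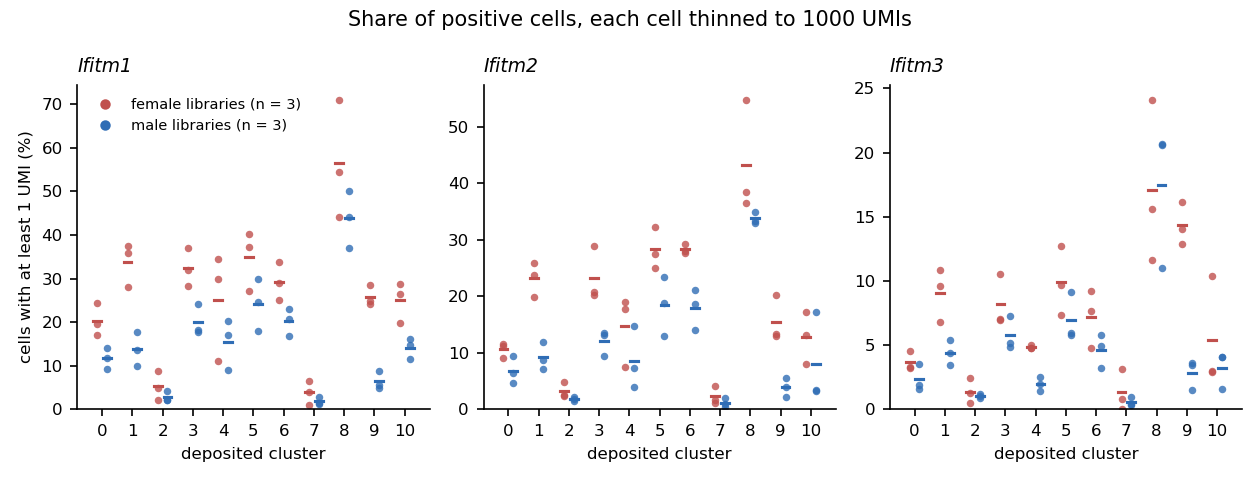
Share of cells (%) with at least 1 UMI of Ifitm1, Ifitm2 and Ifitm3 after thinning each cell to 1000 UMIs, against the deposited cluster. Each point is 1 library (3 female, 3 male) and each line a group mean. In cluster 9 the female libraries sit at 24.2% to 28.4% for Ifitm1 and the male ones at 4.79% to 8.66%.

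Ifitm1 was concentrated in a minority of strongly positive cells. At 1000 UMIs per cell the tenth of cells with the most Ifitm1 held 79.8% of its UMIs over all CD8 T cells outside cluster 2. The same measure was 48.2% in cluster 8 and 95.7% in cluster 9. It rises as fewer cells are positive: 51.3% of cluster 8 cells and 88.0% of cluster 9 cells held no Ifitm1 UMI. A positive cell held 3.71 Ifitm1 UMIs on average over the libraries (2.99 to 4.14), and the richest held 31. The ratio of variance to mean, which is 1 for pure counting noise, was 4.96 to 7.67 for Ifitm1 across the 6 libraries, with a mean of 6.11. It had a mean of 2.28 for Ifitm2, 1.69 for Ifitm3, 1.59 for Ifit3 and 1.31 for Isg15. Ly6e, a widely expressed membrane-anchored restriction factor, had a mean of 1.25. The ratio was not adjusted for the level of a gene. That level was 937 CPM for Ifitm1, 312 CPM for Ifitm2 and 99.8 CPM for Ifitm3, as means of the libraries outside cluster 2. Cells with 10 or more Ifitm1 UMIs made up 6.22% of cluster 8, 4.65% of cluster 1 and 1.62% of all CD8 T cells outside cluster 2, as means of the libraries.

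**Figure D3:**
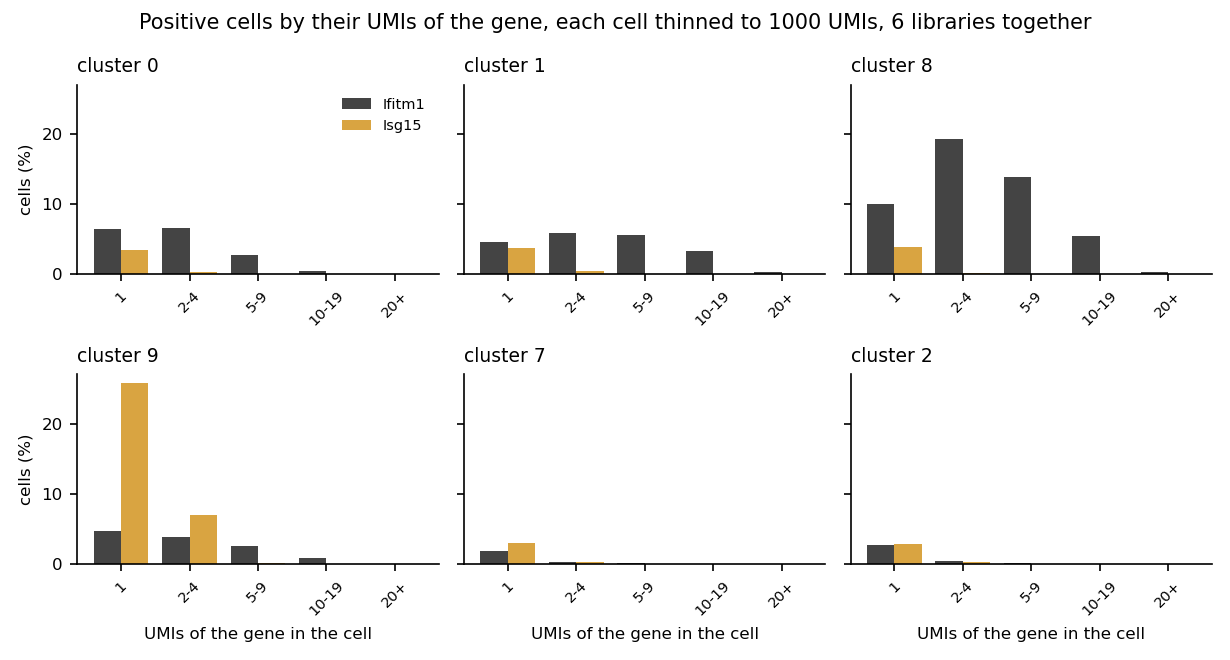
Percent of cells by their number of UMIs of Ifitm1 or Isg15 after thinning each cell to 1000 UMIs, for 6 deposited clusters with the 6 libraries together; cells with 0 UMIs are not drawn. Isg15 in cluster 9 is mostly 1 UMI per positive cell, whereas Ifitm1 in clusters 1 and 8 reaches into the bins of 5 to 19 UMIs.

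The 3 members were found in the same cells more often than their single shares would give within a cluster and library. At 1000 UMIs per cell, 72.0% of the CD8 T cells outside cluster 2 held no member, 17.0% held 1, 9.03% held 2 and 1.94% held all 3. In cluster 8, 38.0% held none and 8.08% held all 3. For Ifitm1 and Ifitm2 the count of cells with both, divided by the count that independence within each library would give, was 3.38 in cluster 0, 2.89 in cluster 1, 2.05 in cluster 3, 2.75 in cluster 4 and 1.83 in cluster 5. It was 1.97 in cluster 6, 1.40 in cluster 8, 3.44 in cluster 9 and 2.35 in cluster 10. The ratio was above 1 in all 6 libraries in each of these 9 clusters; clusters 2 and 7 had too few positive cells to read. Ifitm1 with Ifitm3 gave 1.46 in cluster 8 to 3.18 in cluster 0, and Ifitm2 with Ifitm3 gave 1.69 in cluster 8 to 3.65 in cluster 0. The ratios were lowest in cluster 8, where the single shares are highest.

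Cluster 9 shows the contrast with the controls most directly, because there Ifit3 and Isg15 are also frequent. Among its 152 cells with an Ifitm1 UMI, 37.5% held Ifitm2, against 2.77% of its cells without Ifitm1. For Ifitm3 the values were 27.6% and 3.04%. For Ifit3 they were 23.0% and 30.7%, and for Isg15 38.8% and 32.1%. These percentages pool 6 libraries whose shares differ between the sexes, so they hold part of the sex difference. Within libraries, the ratio to independence of Ifitm1 with Ifitm2 was 3.04, 2.16 and 2.70 in the female and 14.9, 8.14 and 6.93 in the male ones. Summed within libraries in the same way, Ifitm1 with Ifit3 stood at 0.86 (above 1 in 3 of 6 libraries) and Ifitm1 with Isg15 at 1.19 (5 of 6). The 2 controls with each other gave 1.29 (6 of 6).

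**Figure D4:**
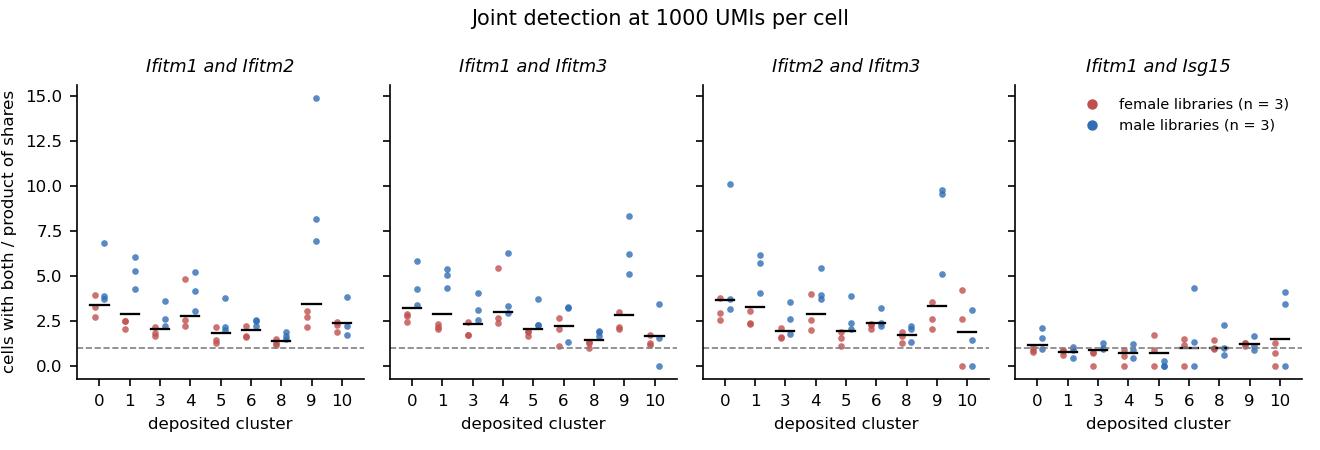
Cells holding both genes of a pair, divided by the number that independence within each library would give, against the deposited cluster, after thinning each cell to 1000 UMIs. Points are libraries, bars are the 6 libraries together, and the dashed line is a ratio of 1. Ifitm1 with Ifitm2 is above 1 in every library of the 9 clusters shown. The other pairs drawn are Ifitm1 with Ifitm3, Ifitm2 with Ifitm3 and Ifitm1 with Isg15.

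Across the 66 sums of 11 clusters and 6 libraries, the members were one another's nearest genes or close to it among 7218 genes. These correlations are of log2(CPM + 1), the points share libraries, depth and cells, and they are given as a description. For Ifitm1 the 5 genes of highest Pearson r were Ifitm2 (0.95), the calcium-binding gene S100a6 (0.92), the mitochondrial carbonic anhydrase gene Car5b (0.91), Ifitm3 (0.91) and S100a4 (0.89). For Ifitm2 they were Ifitm1 (0.95), S100a6 (0.92), Ifitm3 (0.89), the fucosyltransferase gene Fut7 (0.88), which makes selectin ligands, and AA467197 (0.87). For Ifitm3 they were Ifitm1 (0.91), Ifitm2 (0.89), S100a4 (0.84), AA467197 (0.83) and S100a6 (0.83). With 11 cluster means in place of the 66 sums, 4 of the 5 genes were shared for each member. The r of Ifit3 with the members was −0.30, −0.38 and −0.16 for Ifitm1, Ifitm2 and Ifitm3, and that of Isg15 was 0.03, −0.10 and 0.16, which ranked Isg15 4445th, 5055th and 3046th.

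Neighbouring genes on the chromosome ranged from unlike to moderately like the members. Ifitm5, the bone-restricted member of the family, had 0.47 CPM on average over all CD8 T cells outside cluster 2, with an r of 0.58, 0.62 and 0.59 with Ifitm1, Ifitm2 and Ifitm3. Ifitm6 had 0.08 CPM. Before Ifitm2, Odf3 had 0 UMIs, and Bet1l, Sirt3 and Psmd13, which serve vesicle transport, mitochondrial deacetylation and the proteasome, had an r with Ifitm1 of 0.21, 0.08 and 0.52. After Ifitm3 the values were 0.06 for Ifitm6, 0.56 for B4galnt4, 0.75 for the desmosomal gene Pkp3, 0.06 for Sigirr and 0.32 for Ptdss2. Pkp3 was thus the neighbour most like Ifitm1, at 80.3 CPM. Elsewhere in the CD225 family, Ifitm10 had 3140 UMIs, Tmem91 261, Ifitm5 117 and Ifitm6 25. Ifitm10 had 16.3 to 32.7 CPM in cluster 2, where the 3 members were near their lowest, and 8.66 to 16.8 CPM in cluster 8, where they were highest.

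Within clusters, the cells with an Ifitm1 UMI were compared with those without, at 1000 UMIs per cell, as the mean log2 ratio over 7 clusters (0, 1, 3, 4, 5, 6 and 8) with 5 CPM added. Of 5341 genes, only those with the same sign in all 6 libraries were ranked. The highest ratios among them were those of Ifitm2 (2.64, SD 0.611 over the libraries) and Ifitm3 (2.42, SD 0.518). The granzyme genes Gzmc (1.63) and Gzmf (1.60) and the chemokine gene Ccl1 (1.55) followed. The lowest were the integrin gene Itga4 (−1.54), the glutamate transporter gene Slc17a6 (−1.47), the memory-associated factor gene Eomes (−1.34), the lymph-node homing receptor gene Ccr7 (−1.15) and Itm2a (−1.02). For these 10 genes the constant sign over the 6 libraries was a condition of the ranking and not a result. Isg15 (−0.36), Ifit3 (−0.17) and the tetherin gene Bst2 (−0.04) changed sign between libraries, and Ly6e stood at 0.42. This is a description of cells chosen by Ifitm1 and carries no test.

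Between the sexes, all 3 members were lower in the male libraries, but over all CD8 T cells none passed the adjusted threshold. Ifitm1 had 1082, 1235 and 1333 CPM in the female and 653, 774 and 547 CPM in the male libraries. Ifitm2 had 378, 370 and 493 CPM against 171, 268 and 192 CPM, and Ifitm3 had 103, 102 and 157 CPM against 80.9, 97.7 and 58.1 CPM. For each member every female library lay above every male one, as it did for 6.09% of the 12194 genes tested. In edgeR's quasi-likelihood test with Benjamini-Hochberg adjustment over all genes, the male minus female log2 difference of Ifitm1 was −0.88 (SE 0.137, adjusted p = 0.0852), that of Ifitm2 −0.96 (SE 0.183, adjusted p = 0.170) and that of Ifitm3 −0.60 (SE 0.228, adjusted p = 0.555). The test called 0.0902% of genes in either direction and 0.0492% lower in males. For Ifitm1 the call depended on the setting, with adjusted p from 3.55e-08 (DESeq2) to 0.339 (without female library 5). These all-cell values were known when the members were chosen. Marker lists moved beside them, and their part in the result was not tested. The 10 naive or central memory markers summed to 511 to 662 CPM in the female and 693 to 978 CPM in the male libraries. All 10 had higher estimates in males (median log2 difference 1.11), none was called by edgeR, 7 had an unadjusted p under 0.05 and DESeq2 called 3. The 15 terminally exhausted markers summed to 4235 to 4974 CPM against 3301 to 4100 CPM. Of these, 2 had higher estimates in males (median −0.25), none was called by edgeR or DESeq2 and 5 had an unadjusted edgeR p under 0.05.

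The shares of positive cells moved the same way. At 1000 UMIs per cell the mean share with Ifitm1 was 29.5% ± 3.89 (SD, n = 3) in females and 15.8% ± 3.61 (SD, n = 3) in males, with Ifitm2 20.7% ± 1.27 and 10.8% ± 3.22, and with Ifitm3 7.63% ± 1.72 and 4.48% ± 1.29. Each gave p = 0.10 in a two-sided exact permutation test, the smallest that 3 libraries against 3 allow over 20 assignments. In a sum of cells, fewer positive cells and less RNA per positive cell cannot be told apart, and both shares and UMIs per positive cell are given here for that reason. Ifit3 and Isg15 did not share the direction. Ifit3 had 12.2, 8.71 and 18.9 CPM in the female and 23.1, 38.5 and 27.3 CPM in the male libraries (log2 difference 1.20, SE 0.311, edgeR adjusted p = 0.352), and Isg15 had a difference of 0.30 (SE 0.239, edgeR adjusted p = 0.784) that turned to −0.03 without male library 3.

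Within single clusters the sex difference was tested on sums per library, 33 tests in all. Every one of the 33 estimates was lower in males. The 33 are not independent, since the members moved together and all rest on the same 6 libraries. Over all genes tested, 4073 of 8030 in cluster 9 and 4615 of 9234 in cluster 1 had higher estimates in males. Of the 33 member tests, 8 passed an adjusted p of 0.05, and in 19 every female library lay above every male one. Ifitm1 passed in clusters 0, 3, 5, 9 and 10, Ifitm2 in clusters 6 and 9 and Ifitm3 in cluster 9. In the proliferating-like cluster 3, Ifitm1 had 871, 1014 and 1055 CPM in the female and 581, 586 and 467 CPM in the male libraries (−0.86, SE 0.102, edgeR adjusted p = 0.0015). Calls lower in males were rare there, at 0.0759% of genes, and 3.89% of genes had every female library above every male one; 1 member passed and 2 did not overlap. In cluster 0, where 0.0693% of genes were called lower and 3.64% did not overlap in that direction, Ifitm1 fell by 1.11 on the log2 scale (edgeR adjusted p = 0.0129) and all 3 members had no overlap. The call was lost without female library 2 or 6, male library 4 or cells with a myeloid UMI (adjusted p 0.0907 to 0.150). In the replication-led cluster 5, where the shares were 0.049% and 2.73%, Ifitm1 fell by 0.70 (edgeR adjusted p = 0.0128) and 2 members had no overlap. The call was lost without female library 5 or 6 or male library 1 or 4 (adjusted p 0.0537 to 0.159). Ifitm1 in cluster 3 passed in all 14 alternatives.

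Among the shallow clusters, Ifitm2 in cluster 6 fell by 1.16 on the log2 scale (edgeR adjusted p = 0.0017; 0.0823% of genes called lower, 4.74% without overlap, against 1 and 2 members), with an adjusted p of 0.0504 without female library 2. Ifitm1 in cluster 10 fell by 1.12 (edgeR adjusted p = 0.0044; 0.125% and 5.61%, against 1 and 1 member), with an adjusted p of 0.244 without female library 5. Cluster 1 had large but uncertain values, with −1.38 for Ifitm1, −1.27 for Ifitm2 and −1.18 for Ifitm3 at edgeR adjusted p of 0.266, 0.252 and 0.151. All 3 members had no overlap there, as had 12.9% of its genes, and 2.2% were called lower. In that cluster all 9 tested naive markers had higher estimates in males (median 0.75, 2 called), and the exhausted markers had a median of −0.76 with 2 of 14 called lower; their part was not tested. In cluster 4, 1 member had no overlap (3.52% of genes; 0.0632% called lower), and in cluster 2, 2 members (9.51%; 0.28%). The cluster 2 levels rested on few cells. Without the 5 richest cells of each library, Ifitm1 had 35.7, 50.7 and 23.1 CPM in the female and 20.2, 14.1 and 27.4 CPM in the male libraries. Ifitm3 had 4.79, 7.41 and 17.1 CPM against 5.48, 6.06 and 10.1 CPM, so that the groups overlapped for both. In cluster 7 none of the estimates passed and the groups overlapped for each member (0.108% of genes called lower, 8.34% without overlap), and the Ifitm1 difference of −2.14 was 0.00 without female library 5.

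Cluster 8, where the members were highest, had the smallest estimates. They were −0.17 for Ifitm1 (SE 0.378), −0.38 for Ifitm2 (SE 0.203) and −0.03 for Ifitm3 (SE 0.468), with edgeR adjusted p of 0.9995 for each, and the groups overlapped for all 3 (0.0538% of genes called lower, 3.08% without overlap). Without female library 6 the values of Ifitm1 and Ifitm3 were 0.14 and 0.32. The standard errors are too wide to show that the sexes were alike in these cells.

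The interferon-stimulated-like cluster 9 had the largest called differences. Ifitm1 had 1340, 1157 and 990 CPM in the female and 234, 235 and 412 CPM in the male libraries, 3.82 times lower in males (−1.93, SE 0.207, edgeR adjusted p = 4.29e-04). Ifitm2 had 342, 264 and 368 CPM against 36.9, 66.4 and 80.7 CPM, 5.07 times lower (−2.34, SE 0.234, edgeR adjusted p = 3.68e-04). Ifitm3 had 194, 226 and 279 CPM against 21.6, 50.8 and 62.9 CPM, 4.98 times lower (−2.31, SE 0.357, edgeR adjusted p = 0.0306). All 3 members passed and all 3 had no overlap. In this cluster 2.29% of the 8030 genes were called lower in males and 13.5% had every female library above every male one, so both counts stand against a high background. In either direction 3.41% were called. Ifitm1 and Ifitm2 passed in every one of their 14 alternatives. Ifitm3 did not pass without female library 2, 5 or 6 or male library 3 (adjusted p from 0.0651 to 0.204), nor without cells holding a myeloid UMI (0.0523).

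In the same cells the 2 controls did not fall. Ifit3 was 1.71 times higher in males (log2 difference 0.78, SE 0.184, edgeR adjusted p = 0.0316), although it helped to define the cluster. This call was lost in 4 of 14 alternatives: without female library 5, without male library 3, without cells holding a myeloid UMI and in thinned cells (adjusted p 0.0715 to 0.0882). Isg15 differed by 0.02 (SE 0.175, edgeR adjusted p = 0.976). At 1000 UMIs per cell, Ifitm1 was found in 28.4%, 24.2% and 24.7% of cluster 9 cells in the female and in 4.79%, 5.58% and 8.66% in the male libraries, and Isg15 in 25.7%, 37.6% and 34.4% against 29.9%, 42.6% and 30.2%. A positive cell of cluster 9 held 4.61, 3.26 and 3.43 Ifitm1 UMIs in the female and 4.56, 2.55 and 3.18 in the male libraries, so the groups overlapped in this measure while the shares did not.

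**Figure D5:**
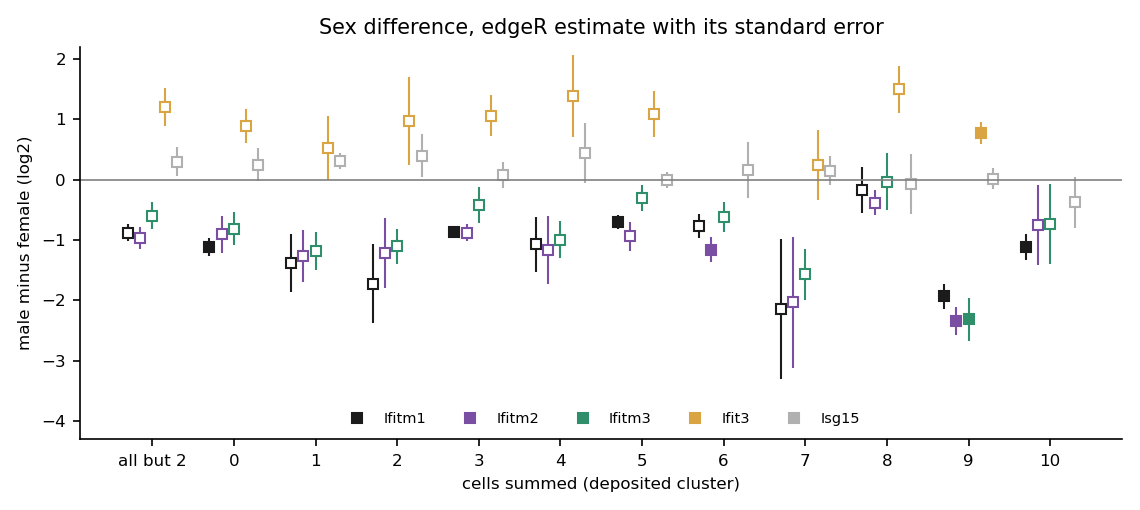
Male minus female log2 difference with its standard error from edgeR for all CD8 T cells outside cluster 2 and for each deposited cluster; filled squares have an adjusted p under 0.05. All estimates of Ifitm1, Ifitm2 and Ifitm3 lie below 0, near −2 in cluster 9 and near 0 in cluster 8, while Ifit3 lies above 0.

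Whether cluster 9 differs in its sex effect from the other cells was tested as an interaction, with library as a block and all other cells outside cluster 2 as the reference. For Ifitm2 the sex difference was more negative in cluster 9 by −1.36 (SE 0.112, edgeR adjusted p = 4.18e-23), and it passed in all 9 alternatives. The adjusted p was 3.64e-04 in limma-voom, a check added after the data were seen. With 3 libraries per sex, the size of the edgeR value should not be read as the spread between libraries alone. In single libraries, the log2 ratio of Ifitm2 in cluster 9 to that in the other cells was −0.14, −0.49 and −0.43 in females and −2.23, −2.05 and −1.27 in males. For Ifitm1 the interaction was −1.04 (SE 0.452, edgeR adjusted p = 0.509) and for Ifitm3 −1.73 (SE 0.497, edgeR adjusted p = 0.302). Both passed without robust fitting (5.83e-10 and 1.58e-15) and in limma-voom (0.0176 and 0.0017), so their calls depend on the tool. The test called 2.74% of genes in cluster 9.

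Elsewhere the interaction passed only for Ifitm3 in cluster 5, where the sex difference was less negative than in the other cells by 0.38 (SE 0.0756, edgeR adjusted p = 0.0271; 0.39% of genes called). It passed in 3 of 9 alternatives. For cluster 8 the estimates were 0.88 for Ifitm1 (SE 0.425), 0.76 for Ifitm2 (SE 0.271) and 0.71 for Ifitm3 (SE 0.336), at edgeR adjusted p of 0.822, 0.771 and 0.819, so a smaller sex difference in cluster 8 was not established (0.0266% of genes were called there). In the other clusters no member passed, and the test called 0.0177% of genes in cluster 0, 1.23% in cluster 1, 0.121% in cluster 2, 0.546% in cluster 3, 0% in clusters 4 and 10, 0.0174% in cluster 6 and 0.218% in cluster 7.

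Other genes of the interferon response did not follow the members. Of the 51 interferon-stimulated genes that could be tested, 44 over all CD8 T cells had higher estimates in males, and their median log2 difference was 0.24, beside 0.00 for all genes. None was called by edgeR or limma-voom, 19 had an unadjusted edgeR p under 0.05, and DESeq2 called 7, among them Iigp1 (1.65 in edgeR), Ifit3b (1.39) and Oasl1 (1.35), all higher in males. In cluster 9, 39 of 51 were higher, with a median of 0.19 beside 0.01, and 3 were called higher: Ifit3, its neighbour Ifit3b (0.89, SE 0.176, edgeR adjusted p = 0.0028) and the immunity-related GTPase gene Iigp1 (1.53, SE 0.336, edgeR adjusted p = 0.0385). Among 15 genes of interferon receptors and signalling, 14 had higher estimates in males over all cells. None was called by edgeR, 6 had an unadjusted p under 0.05, and DESeq2 called 1, Socs3. In cluster 9, 13 of 14 were higher and Socs3, a feedback inhibitor of cytokine receptors, was called (1.03, SE 0.176, edgeR adjusted p = 0.0012).

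Of the other CD225 family genes, 3 could be tested, and a difference from the 3 members was not tested. Over all cells Ifitm10 stood at 0.25 and Tmem91 at 0.20, while Ifitm5, at −0.74, had the direction and size of the members. None was called by edgeR, DESeq2 or limma-voom, and 0 of the 3 had an unadjusted edgeR p under 0.05. Of 8 genes known to modify or bind IFITM proteins, such as the palmitoyltransferase gene Zdhhc20 (−0.05), the ATPase gene Vcp (−0.01) and the membrane-contact gene Vapa (−0.09), 2 had higher estimates in males, none was called by these tools and 0 had an unadjusted edgeR p under 0.05. Of 11 restriction factors from other families, 9 were higher, none was called by these tools and 2 had an unadjusted edgeR p under 0.05, with Ly6e at 0.02 and the cytidine deaminase gene Apobec3 at 0.10.

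As over all cells and in cluster 1, marker lists moved with the members in cluster 9, and their part in the result was not tested. The summed level of 15 terminally exhausted markers was 2451 to 3335 CPM in the female and 827 to 1542 CPM in the male libraries. Of the 13 tested, none was higher in males and 4 were called lower, with a median of −1.23, among them the chemokine receptor gene Cxcr6 (−1.23, SE 0.175, edgeR adjusted p = 8.78e-04). The 10 naive or central memory markers summed to 718 to 1276 CPM in females and 1395 to 1909 CPM in males. Of the 9 tested all were higher and 2 were called, including Ccr7 (1.46, SE 0.295, edgeR adjusted p = 0.0299). The 9 activated cytokine-producing markers stood at 1705 to 6139 against 514 to 1165 CPM, and 5 CD8 T cell markers at 4161 to 5421 against 2944 to 3894 CPM. The 14 myeloid markers stood at 122 to 169 CPM in females and 88.7 to 118 CPM in males, with 1 of 14 at 0 in every library. The 6 tumour epithelial markers stood at 4.72 to 9.45 CPM over the 6 libraries, with 3 of 6 at 0. Leaving out every cell with a UMI of the myeloid genes Lyz2, C1qa, C1qb, C1qc, Csf1r or Cd14 (1025 cells over all clusters) left the cluster 9 differences at −1.90 for Ifitm1, −2.35 for Ifitm2 and −2.39 for Ifitm3.

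The genes most like the members moved in part with them. In cluster 9 Fut7 was called lower in males (−1.76, SE 0.379, edgeR adjusted p = 0.0064). S100a6 stood at −1.07 (edgeR adjusted p = 0.0608), S100a4 at −1.22 (0.169), AA467197 at −1.62 (0.159) and Car5b at −0.73 (0.264). Over all CD8 T cells the values of S100a6, S100a4 and Car5b were −0.45, −0.57 and −0.40, at edgeR adjusted p of 0.308, 0.437 and 0.231. The make-up of the libraries by cluster also differs, so the all-cell test was repeated with all libraries weighted to 1 common cluster mix, the mean shares of the 6 libraries. The differences were then −0.80 for Ifitm1 (edgeR adjusted p = 0.0653), −0.88 for Ifitm2 (0.0988) and −0.52 for Ifitm3 (0.894).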

How the data were processed

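Raw UMI counts per gene and cell, as deposited by the authors, came with a metadata table of sex and cluster per cell. Per the submitters' processing notes, Cell Ranger and Seurat were used with mm10. Not given in the sources used here are their versions, the cell filters, any doublet removal and the handling of multi-matching reads, and no doublet caller was run. In all 26698 cells the column sums equalled the deposited UMI totals. Cells carry a library number that no label ties to a replicate number, so groups were taken from the metadata (3 libraries per sex). The members and lists were chosen with earlier results of these data known.

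For each library the UMIs were added up across cells, once for everything except cluster 2 and once for each cluster (at least 93 cells in a sum). These sums were tested with edgeR 4.0.16 (R 4.3.3; filterByExpr, TMM, robust quasi-likelihood fit, Benjamini-Hochberg over all genes tested). CPM is UMIs per 1000000 UMIs of the summed cells. DESeq2 1.42.0 and limma 3.58.1 were alternatives. Shares, joint detection and spread used cells thinned to 1000 UMIs; thinning to 3000 UMIs left out 3816 cells. The fits were tested on simulated counts. Named are the members and controls, other CD225 genes with any count, and up to 4 genes per list by mean CPM (interferon lists up to 6 by smallest sex p). Also named are the 5 genes of highest r per member (mean CPM at least 10) and the 5 genes on either side of the locus. The last are the 5 highest and 5 lowest ratios with Ifitm1 (mean CPM at least 20, same sign in all 6 libraries, at least 20 cells on each side). Socs3 and the called marker genes follow these rules. 1 gene that they would name is not reported here.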

Additional observations from a re-analysis of the deposited data

Results flagged for a closer look

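For 2 results the sex difference in a cluster differed from that in the other cells outside cluster 2 by the interaction test itself. Ifitm2 in cluster 9 was lower in males by a further −1.36 on the log2 scale (edgeR adjusted p = 4.18e-23, 1.58e-15 without robust fitting and 3.64e-04 in limma-voom). Ifitm3 in cluster 5 had a sex difference 0.38 less negative than in the other cells (edgeR adjusted p = 0.0271), a call that held in only 3 of 9 alternatives. The log2 ratio of Ifitm3 in cluster 5 to the other cells was 0.06, 0.08 and 0.02 in the female and 0.64, 0.25 and 0.45 in the male libraries. The reference holds every other cluster outside cluster 2, so each value depends on those cells too.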

How the results depend on the processing

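No paired analysis was possible because the cells carry library numbers that no label ties to replicate numbers, so no replicate block could be fitted. Over all CD8 T cells, 11 genes were called; DESeq2 called 136, thinned cells gave 33, and leaving out 1 library gave 9 to 16. Ifitm1 (−0.88, adjusted p 0.0852) passed in DESeq2 (−0.88), without a filter on low counts (−0.88, adjusted p 0.0449), in thinned cells (−1.02, adjusted p 0.0015) and with cluster 2 included (−0.95, adjusted p 0.0371). Leaving out 1 library gave −1.04 to −0.75, and it passed without male library 3 (adjusted p 0.0261). Ifitm2 passed in DESeq2 (−0.97, adjusted p 4.76e-06) and without male library 3 (adjusted p 0.0183), with −1.20 to −0.82 when 1 library was left out. Ifitm3 passed in none of its 17 alternatives (adjusted p 0.0929 to 0.9999). Within clusters, the 8 calls of members became 13 in limma-voom, 13 without robust fitting, and 5 to 12 with 1 library left out (5 without female library 5). Of the 33 member and cluster results, 29 kept their direction in every alternative run. Turned directions, each with 1 library left out, came in cluster 7 for Ifitm1 (−2.65 to 0.0045), in cluster 8 for Ifitm1 (−0.47 to 0.14) and Ifitm3 (−0.32 to 0.32) and in cluster 10 for Ifitm3 (−1.26 to 0.28). Isg15 turned over all cells (−0.028 to 0.45 with 1 library left out), in cluster 9 (−0.024 in limma-voom, −0.26 to 0.17 with 1 library left out) and in its share without thinning (−0.0675 points). The 2 interaction calls became 4 without robust fitting, an alternative chosen after seeing the data, and 1 to 4 with 1 library left out. The cause was not tested for any of these. With 3 libraries per sex the permutation test cannot go below 0.10. Counts near 0, such as Ifit3 in cluster 8 and Ifitm3 in cluster 7, limit what shares of thinned cells can show.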
